A study of Mus musculus with 10 samples.

Results

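The genes described here, with 1 probe for each of 10, encode proteins the liver secretes into blood: the antitrypsins Serpina1b, Serpina1d and Serpina1e, the acute-phase proteins Orm1 and Saa1, the fibrinogen chain Fgb, and Ahsg, Vtn, H2-Q10 and Trf. They were selected on their array intensity, which was high in 1 of 5 pools of testis RNA (5 h after TSA), and were found by gene symbol in the platform annotation. They are 10 of 8738 genes measured. Testes came from male BALB/c mice of 9 weeks. Mice received 1 subcutaneous injection of 60 µg of TSA, trichostatin A, an inhibitor of histone deacetylases, in dimethyl sulfoxide and phosphate-buffered saline, and were killed 2.5, 5, 7.5 or 10 h later, with 3 mice at each time. The 3 control mice received the carrier without TSA and were killed at 10 h, so that only the 10 h pool matches the control in time. RNA was combined within each group of 3 and hybridised to 2 arrays, so that every group is n = 1 pool. The spread given below is between duplicate arrays of a pool, and the spread between mice was not measured.

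Most plasma proteins are made by hepatocytes, where their genes are read under liver-enriched transcription factors such as HNF1, FOXA and C/EBP proteins. Antitrypsins and their kin block serine proteases, fibrinogen forms the clot, and carriers such as transferrin bring iron and other cargo to tissues. In an acute-phase response, interleukins acting through C/EBP and STAT3 raise some of these genes in liver and lower others. In the testis, Sertoli cells, which form the blood-testis barrier, make a transferrin of their own, which supplies iron to germ cells.

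The promoter windows of the 3 antitrypsins are shown first, because these are 3 of the 10 genes and their windows are close copies of each other. Each line holds the 120 bases before the annotated start of the gene, written 5′ to 3′ along the gene, from RefSeq on build GRCm38.p6. Capitals mark GTTAAT, a half-site bound by HNF1, and TGTTTGC, letters found in FOXA sites. The windows lie at chr12:103738190-103738309 (minus strand), chr12:103773634-103773753 (minus strand) and chr12:103956898-103957017 (minus strand).
Serpina1b: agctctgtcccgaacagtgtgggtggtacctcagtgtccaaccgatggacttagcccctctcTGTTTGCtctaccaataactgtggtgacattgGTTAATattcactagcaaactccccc
Serpina1d: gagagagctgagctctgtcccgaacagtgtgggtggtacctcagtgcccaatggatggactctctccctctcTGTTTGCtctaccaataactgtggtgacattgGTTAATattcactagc
Serpina1e: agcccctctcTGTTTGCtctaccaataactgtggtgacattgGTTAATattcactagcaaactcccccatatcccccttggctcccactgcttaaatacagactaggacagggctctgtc

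A run of 63 bases that holds both sets of capitals was identical in the 3 antitrypsin promoters. Among 32851 promoter windows of equal length, only 4 held that run, those of Serpina1b, Serpina1c, Serpina1d and Serpina1e. These genes are neighbours on chromosome 12 and are near-identical in sequence, so that a probe for one may also read RNA of the others, and the split of signal among them is uncertain.

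Fgb, Ahsg and Vtn are shown for comparison, with the same capitals on either strand (ATTAAC is GTTAAT read on the other strand). Their windows lie at chr3:83049864-83049983 (minus strand), chr16:22891895-22892014 (plus strand) and chr11:78499000-78499119 (plus strand).
Fgb: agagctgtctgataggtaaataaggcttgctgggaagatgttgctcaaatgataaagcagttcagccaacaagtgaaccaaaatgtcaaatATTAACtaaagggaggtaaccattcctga
Ahsg: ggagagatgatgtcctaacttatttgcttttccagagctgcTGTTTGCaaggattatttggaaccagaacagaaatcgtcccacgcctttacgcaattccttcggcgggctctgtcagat
Vtn: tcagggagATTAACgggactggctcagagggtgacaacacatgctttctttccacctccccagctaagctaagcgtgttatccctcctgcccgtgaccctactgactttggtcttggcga

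Among the 10 genes, 8 had an entry in the promoter table, all but Orm1 and Trf. The half-site GTTAAT was present on either strand in 5 of the 8 windows (250 bases before to 50 after the start) and in 7.10% of all 32851 promoters. TGTTTGC was present in 4 of 8 and in 5.07% of all. The C/EBP letters TTGCNNAA were present in 6 of 8 and in 10.8% of all, and the STAT letters TTCNNNGAA in 2 of 8 (Fgb and Vtn) and in 8.30% of all. A match is a description of the letters, not a bound site, and the 3 antitrypsins count as copies rather than as independent cases. The first base of the half-site lay 26 bases before the start in Serpina1b, 16 in Serpina1d and 78 in Serpina1e, and the FOXA letters began 32 bases upstream of it in each.

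**Figure D1:**
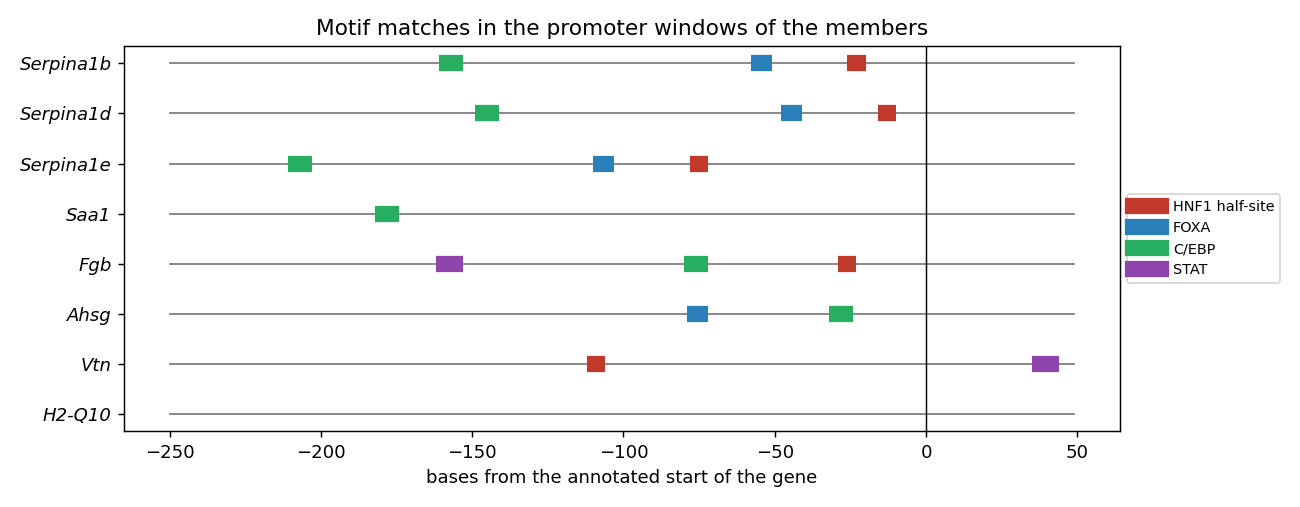
Matches to 4 motifs in the promoter windows of the 8 genes with an entry, drawn as boxes along bases from the annotated start (x axis, 250 before to 50 after), with a line per gene. The antitrypsins carry the same order of C/EBP, FOXA and HNF1 matches at shifted distances, Saa1 carries a C/EBP match alone, and H2-Q10 has none of the letters searched.

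The arrays were CodeLink 1-channel arrays, and each array's linear intensities had a median of 1.00. Duplicate arrays correlated between 0.995 and 0.998 over probes, with an array SD on the log2 scale between 0.0934 in the 5 h pool and 0.163 in the 7.5 h pool. An intensity of 0.207, under which the lowest 25% of probes lay, served as the limit for dim signals, and a fold against a level below it is given as "at least". In RNA of whole tissue, fewer cells of a type and less RNA per cell cannot be told apart. The testis label was checked against marker lists: 12 germ cell genes summed to 787 to 800 in intensity on the 5 h arrays and 799 to 865 on the other 8 arrays, 11 Sertoli cell genes to 60.4 to 63.6 against 57.1 to 65.8, and 6 Leydig cell genes to 133 to 134 against 121 to 157.

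All 10 genes were highest in the 5 h pool, and on both of its arrays each lay above all 8 other arrays. These values chose the genes, so they are a description without a test. The size rule used throughout asks for at least 2-fold (log2 of 1), with both arrays of one side above both, or all, arrays of the other, and carries no p-value. By this rule 43 of 7423 probes (0.579%) were higher in the 5 h pool than in the mean of the other 4 pools, and 1 (0.0135%) was lower. All 10 genes were among the 43, of which Serpina1d, Orm1 and H2-Q10 passed the filter on dim probes through their 5 h values.

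**Figure D2:**
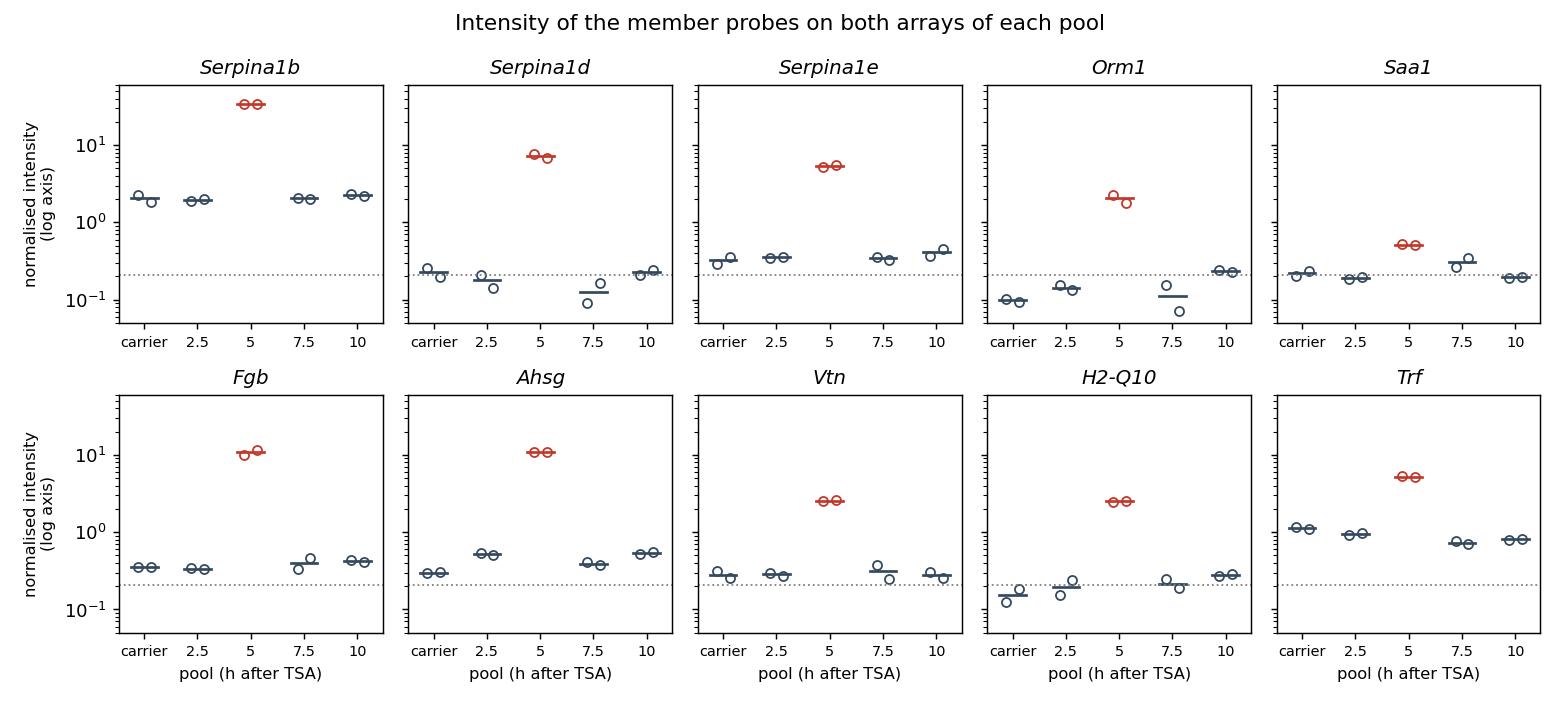
Normalised intensity (log y axis) of the 10 probes on both arrays (open circles) of the carrier control pool and of the pools 2.5, 5, 7.5 and 10 h after TSA, with bars at the pool means and a dotted line at 0.207. The 2 arrays at 5 h stand above the other 8 in every panel, and the other pools of Serpina1d, Orm1, Saa1 and H2-Q10 lie near or below the dotted line.

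Antitrypsins are a family of plasma protease inhibitors that includes inhibitors of neutrophil elastase, and what each copy blocks was not measured here. Serpina1b, on chromosome 12, read 2.23 and 1.86 on the control arrays, 1.90 and 2.04 at 2.5 h, 34.4 and 34.4 at 5 h, 2.07 and 2.01 at 7.5 h and 2.33 and 2.22 at 10 h. The 5 h arrays stood apart, the control arrays overlapped each of the other 3 pools. The 5 h pool over the mean of the other 4 gave a log2 fold of 4.05 ± 0.04 (SE from duplicate arrays), or 16.6-fold.

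Serpina1d read 0.261 and 0.199 in the control, 0.212 and 0.144 at 2.5 h, 7.62 and 6.82 at 5 h, 0.0907 and 0.163 at 7.5 h and 0.211 and 0.241 at 10 h. Neighbouring pools in the order of the other 4 overlapped, all of them at or near the dim limit. The 5 h pool was at least 34.9-fold above the mean of the other 4. Serpina1e read 0.293 and 0.356 in the control, 0.350 and 0.362 at 2.5 h, 5.28 and 5.59 at 5 h, 0.359 and 0.326 at 7.5 h and 0.371 and 0.456 at 10 h. Only the 5 h pool stood far from the rest, at 15.2-fold (log2 3.93 ± 0.07).

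Orm1, orosomucoid, is an acute-phase carrier of small molecules, and its gene lies on chromosome 4. It read 0.104 and 0.0929 in the control, 0.154 and 0.133 at 2.5 h, 2.28 and 1.81 at 5 h, 0.154 and 0.0714 at 7.5 h and 0.246 and 0.226 at 10 h. The control, 2.5 h and 7.5 h pools were below the dim limit and the 10 h pool just above it. The 5 h pool was at least 9.81-fold above the mean of the other 4. Its paralogs Orm2 and Orm3, picked after their values were seen, had pool means of 0.0551 and 0.0194 at 5 h, below the dim limit.

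Saa1, serum amyloid A, is a lipid-bound acute-phase protein whose gene lies on chromosome 7. It read 0.203 and 0.238 in the control, 0.186 and 0.199 at 2.5 h, 0.525 and 0.508 at 5 h, 0.269 and 0.352 at 7.5 h and 0.191 and 0.199 at 10 h. Its 5 h step was the smallest of the 10, at 2.30-fold (log2 1.20 ± 0.06), and the 7.5 h pool came next, above the control arrays. With an offset added before the logarithm the log2 fold was 0.73, below the 2-fold limit. Saa3 and Saa4, picked after their values were seen, had pool means of 0.131 and 0.230 at 5 h. The Saa and Orm genes are families of related copies, so their probes may share signal, which could not be checked.

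Fgb encodes the beta chain of fibrinogen, on chromosome 3. It read 0.359 and 0.354 in the control, 0.339 and 0.333 at 2.5 h, 10.0288 and 11.5 at 5 h, 0.338 and 0.458 at 7.5 h and 0.435 and 0.416 at 10 h. The 5 h pool was 28.5-fold above the mean of the others (log2 4.84 ± 0.11). The other 2 chains, Fga and Fgg, which were picked after their values were seen, reached 5.10 and 1.07 at 5 h, at least 24.6-fold and 5.14-fold above the dim limit. All 3 chains of the molecule were thus high in the same pool.

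Ahsg, fetuin-A, is a plasma inhibitor of calcification encoded on chromosome 16. It read 0.293 and 0.305 in the control, 0.543 and 0.512 at 2.5 h, 10.9 and 10.7 at 5 h, 0.407 and 0.374 at 7.5 h and 0.518 and 0.555 at 10 h. The 5 h pool was 25.3-fold above the mean of the others (log2 4.66 ± 0.03). Outside 5 h, all 6 TSA arrays lay above both control arrays.

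Vtn, vitronectin, is an adhesive plasma protein that binds integrins, encoded on chromosome 11. It read 0.312 and 0.252 in the control, 0.299 and 0.271 at 2.5 h, 2.4997 and 2.60 at 5 h, 0.373 and 0.247 at 7.5 h and 0.306 and 0.258 at 10 h. The other 4 pools overlapped one another, and the 5 h pool was 8.89-fold above their mean (log2 3.15 ± 0.10). H2-Q10, on chromosome 17, is a secreted class I histocompatibility molecule made by liver. It read 0.125 and 0.182 in the control, 0.152 and 0.241 at 2.5 h, 2.46 and 2.55 at 5 h, 0.244 and 0.189 at 7.5 h and 0.267 and 0.288 at 10 h. The 5 h pool was at least 12.1-fold above the mean of the other 4. The class I genes of the Q region are close copies, so the signal may not be of H2-Q10 alone.

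Trf, transferrin, carries iron, and its gene on chromosome 9 is read in Sertoli cells as well as in liver. It read 1.15 and 1.11 in the control, 0.927 and 0.960 at 2.5 h, 5.25 and 5.0970 at 5 h, 0.757 and 0.709 at 7.5 h and 0.796 and 0.826 at 10 h. From high to low the pools ran 5 h, control, 2.5 h, 10 h and 7.5 h, and no neighbours in that order overlapped. The 5 h pool was 5.80-fold above the mean of the others (log2 2.54 ± 0.03).

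Outside 5 h, a second comparison asked whether the other TSA pools differed from the control, which was not what chose the genes. The 4 TSA pools share the 1 control pool, so an error in the control moves all of them together. At 2.5 h, 50 of 7423 probes (0.674%) were higher and 18 (0.242%) lower by the size rule, and none of the 10 genes was in either set. At 7.5 h, 75 (1.01%) were higher and 67 (0.903%) lower, again with none of the 10. At 10 h, 91 (1.23%) were higher and 107 (1.44%) lower, with 1 of the 10, Orm1, among the higher.

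Against the control alone the 5 h pool had 90 probes (1.21%) higher and 25 (0.337%) lower, with all 10 genes among the higher, as the choice of genes had fixed. Both 5 h arrays lay above both control arrays for 10 of the 10 genes, as they did for 35.8% of all tested probes, and below for 0 of the 10 and 42.8% of all (31.9% above and 38.3% below with dim probes included). The median log2 fold of the 10 genes over the control was -0.015 at 2.5 h, 4.07 at 5 h, 0.10 at 7.5 h and 0.21 at 10 h. Over all probes tested it was -0.016, -0.029, -0.0081 and 0.0072 at the same times. Outside 5 h the median of the 10 genes thus lay near that of all probes, with the widest gap at 10 h.

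The number of genes with both arrays above both control arrays was 2 of 10 at 2.5 h, 3 at 7.5 h and 5 at 10 h, and with both below it was 3, 2 and 2. Among all tested probes the share above was 35.5%, 36.5% and 39.8%, and the share below was 39.8%, 38.6% and 38.6%. With dim probes included, the shares above were 31.7%, 32.1% and 35.7%, and those below 35.2%, 34.5% and 34.6%. A lack of overlap between duplicate arrays was thus common on these arrays, and the genes' shares of 2 to 5 in 10 lie near that background. Orm1 at 10 h had a log2 fold of 1.26 ± 0.10, from a dim control of 0.0983, so that it is given as at least 1.14-fold. With an offset added before the logarithm its log2 fold was 0.52.

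Above the control on both arrays were Orm1 and Ahsg at 2.5 h, Saa1, Ahsg and H2-Q10 at 7.5 h, and Serpina1e, Orm1, Fgb, Ahsg and H2-Q10 at 10 h. Below it were Saa1, Fgb and Trf at 2.5 h, Serpina1d and Trf at 7.5 h, and Saa1 and Trf at 10 h. Ahsg and Trf were thus the genes that lay on 1 side of the control on both arrays at all 3 times, as did 24.1% of tested probes above it and 24.3% below it. Ahsg was 1.76-fold the control at 2.5 h (log2 0.82 ± 0.05), 1.30-fold at 7.5 h (0.38 ± 0.07) and 1.79-fold at 10 h (0.84 ± 0.06). Trf was 0.834-fold at 2.5 h (log2 -0.26 ± 0.03), 0.648-fold at 7.5 h (-0.63 ± 0.05) and 0.717-fold at 10 h (-0.48 ± 0.04). Trf thus stood below the control in the pools where it was not at its peak, and Ahsg above.

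**Figure D3:**
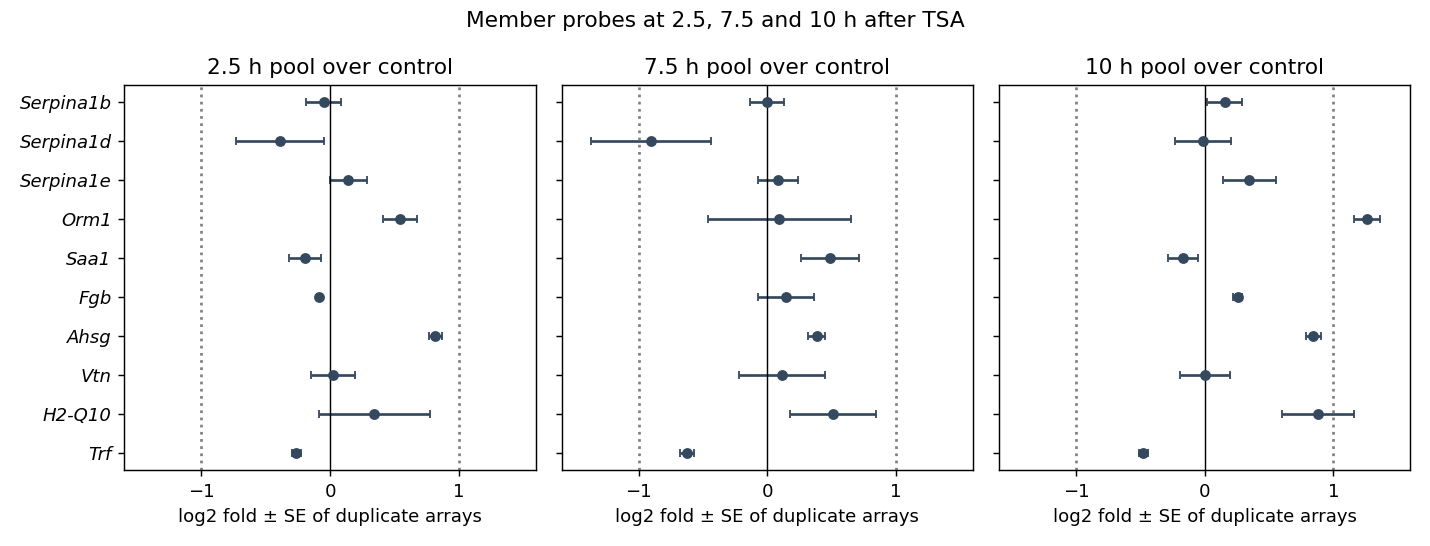
Log2 fold over the control pool (x axis) of the 10 probes in the 2.5, 7.5 and 10 h pools, with bars for the SE of duplicate arrays and dotted lines at 2-fold. Orm1 at 10 h (1.26) is the value past 2-fold. Serpina1e, Orm1, Ahsg, Vtn and H2-Q10 lie to the right of 0 in all 3 panels, and Serpina1d and Trf to the left, some of them barely. Values other than Orm1 at 10 h lie within 2-fold on either side of 0.

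Limma across 7423 probes compared the 2.5, 7.5 and 10 h pools with the control on 4 pool means, leaving out the 5 h pool. With 1 control pool, the test takes the control to vary like the TSA pools. It called 3 probes (0.0404%), all higher, and none of the 7 genes that passed the filter without the 5 h pool (Serpina1d, Orm1 and H2-Q10 did not). Without adjustment 1768 probes had p under 0.05, 1006 of them higher and 762 lower. Ahsg had a log2 fold of 0.68 ± 0.21 (higher in 3 of 3 pools; adjusted p 0.146), and Trf had -0.46 ± 0.18 (lower in 3 of 3 pools; adjusted p 0.194). Of all tested probes, 34.5% were above the control in all 3 pools, and so were Serpina1e and Vtn. Over the alternatives tried, Ahsg or Trf had an adjusted p under 0.05 only in fits on the 8 arrays. Those fits count duplicate arrays of a pool as separate samples or nearly so. No fit on pool means gave either gene an adjusted p under 0.05. The other 5 genes lay between 0.04 (Serpina1b) and 0.19 (Serpina1e), with adjusted p from 0.490 to 0.946.

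One of the 3 probes called was Hrg, histidine-rich glycoprotein, a liver plasma protein of the coagulation list. Its pool means were 0.0632 in the control, 0.317 at 2.5 h, 1.81 at 5 h, 0.349 at 7.5 h and 0.415 at 10 h, so that outside 5 h it was at least 1.73-fold above the control, which lay below the dim limit (limma, adjusted p 0.0236). It was picked after its values were seen.

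The wider set of plasma proteins was read from 5 lists of kin of the 10 genes, and the counts below describe all measured genes, dim ones included. The lists were chosen with earlier results of these data known, so the counts are a description and not a test. Without the filter on dim probes, 118 of 9897 probes (1.19%) were higher in the 5 h pool than in the other 4, and 3 (0.0303%) were lower. Of 79 measured genes on the 5 lists 41 were higher at 5 h and 0 were lower, with a median log2 fold of 1.11 against -0.03 over all probes. Of those 41, 29 had a mean below the dim limit in the other pools. With levels below that limit raised to it, 30 of the 41 were still at least 2-fold higher, and the median over the 79 genes was 0.42. In the same genes, 7 met the rule in either direction at 2.5 h, 9 at 7.5 h and 4 at 10 h, beside 2.21%, 5.60% and 4.63% of all 9897 probes.

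Of 12 measured protease inhibitors and close kin of the antitrypsins, 9 were higher at 5 h, with a median log2 fold of 1.93, or 1.09 with dim levels at their bound. Ambp, the precursor of bikunin and alpha-1-microglobulin, was 3.49-fold higher (log2 1.80 ± 0.04) and Spp2 2.12-fold higher (1.09 ± 0.11). Serpina12 (0.01) and Serpinf1 (0.20), which other tissues also express, did not meet the rule. Mug1, a broad protease trap, reached 5.03 at 5 h, at least 24.3-fold above the dim limit, and Serpina1c, whose promoter holds the shared run of 63 bases, reached 0.441, at least 2.13-fold (both picked after their values were seen).

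Of 20 coagulation genes 6 were higher at 5 h, with a median of 0.26 (0.20 at the bound). Antithrombin (Serpinc1) reached 3.56, at least 17.1-fold above its mean in the other 4 pools. Kininogen (Kng1) reached 2.75, at least 13.3-fold above its own mean there. Both were picked after their values were seen. The 4 brightest by mean log2 intensity over the 10 arrays, F5 (0.18), Proc (0.13), Pros1 (0.07) and Klkb1 (0.01), did not meet the rule, although on the 5 h arrays Fga, Serpinc1 and Kng1 were brighter than Pros1 and Klkb1. Of 15 complement genes 8 were higher, with a median of 1.15 (0.20 at the bound). With dim levels at the bound 3 were still at least 2-fold higher, and 1 of the 8 passed the filter on dim probes. The 4 brightest by the same measure, C8g (0.05), Serping1 (0.36), C1ra (0.17) and Masp1 (-0.11), did not meet the rule.

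Of 14 acute-phase genes other than the 10, 5 were higher at 5 h, with a median of 0.35 (0.10 at the bound). With dim levels at the bound 3 were still at least 2-fold higher, and 1 of the 5 passed the filter on dim probes. Hamp, hepcidin, the hormone that limits iron export, was 6.29-fold higher (log2 2.65 ± 0.04). Haptoglobin (Hp, picked after its values were seen) reached 3.55, at least 17.2-fold above its mean in the other 4 pools. Lrg1 (0.38), Serpina3n (0.32) and Crp (0.06) did not meet the rule. Of 14 genes of acute-phase signalling, which include Stat3, Il1b, Cebpd and Il6st, 0 met the rule, with a median of 0.03. Over all probes, dim ones included, 1.19% were higher, so that 0 of 14 lies near that share. The filter on dim probes passed 6 of the 14, the named genes among them.

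Of 18 carriers 13 were higher at 5 h, with a median log2 fold of 2.48, or 2.03 with dim levels at their bound. Their summed intensity was 127 to 128 on the 5 h arrays and 24.7 to 31.2 on the other 8. Apoa2, a protein of high-density lipoprotein, was 8.95-fold higher (log2 3.16), whereas Apoh (0.64), Apoe (0.79) and Selenop (0.08) did not meet the rule. Of the members' binding partners, 0 of 13 met the rule, near the 1.19% of all probes, with a median of -0.12. The filter on dim probes passed 6 of the 13. Among these, Tfrc, the receptor of transferrin, had a log2 fold of 0.03, B2m, the light chain of class I molecules, 0.23, Itgb5, part of a vitronectin receptor, -0.01, and Ctsg, a neutrophil protease, -0.12.

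**Figure D4:**
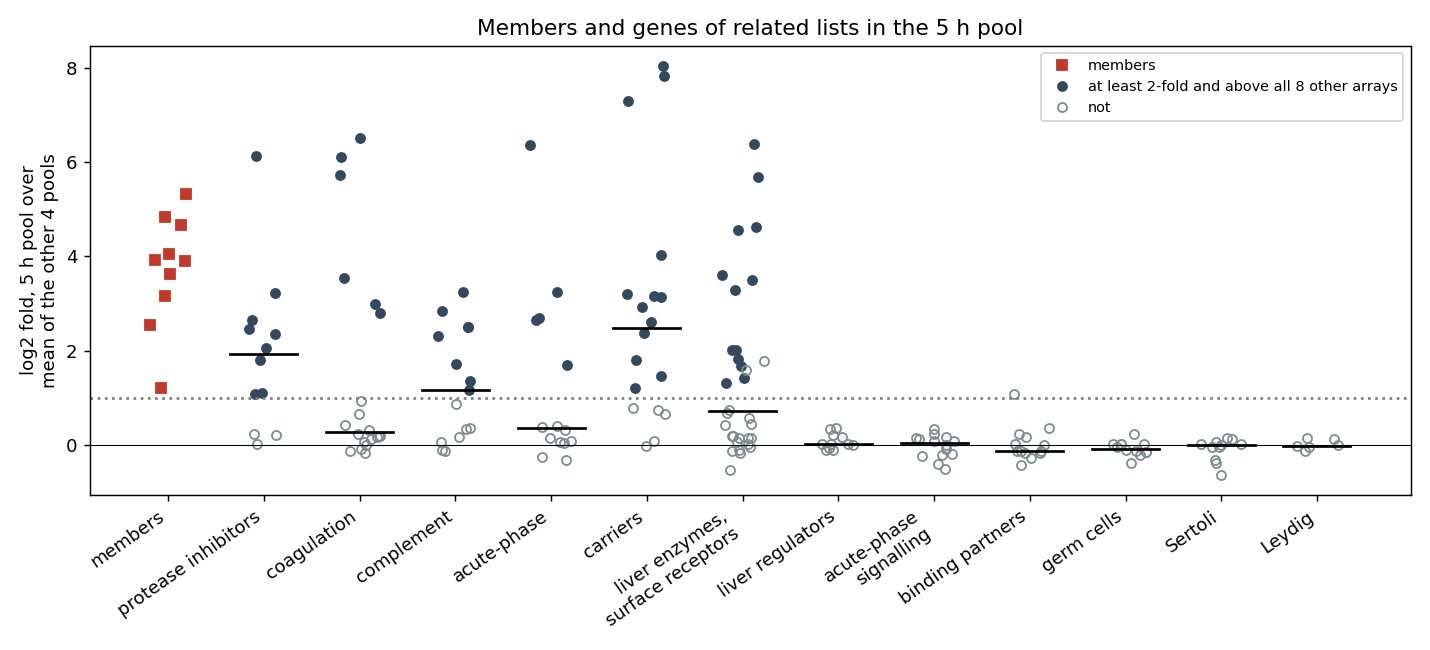
Log2 fold of the 5 h pool over the mean of the other 4 pools (y axis) for the 10 chosen genes (red squares) and for each measured gene of 12 lists. Filled circles met the size rule, open circles did not, bars are list medians and the dotted line is 2-fold. Folds over dim levels are drawn as computed and not as bounds, which is so for 29 of the 41 plasma proteins that met the rule. The medians of regulators, signalling genes, binding partners and testis cells lie near 0.

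Some markers of hepatocytes were high in the same pool. Of 32 measured enzymes and surface receptors of hepatocytes, which are not secreted, 13 were higher at 5 h and 0 lower, with a median log2 fold of 0.71, or 0.31 with dim levels at their bound. Their summed intensity was 204 to 208 on the 5 h arrays and 146 to 167 on the other 8 arrays, and 1 of the 32 was at the floor on the 5 h arrays. Of 17 defining hepatocyte markers 12 were measured. Higher at 5 h were 8 (Ttr, Apoa1, Otc, Tdo2, Hpd, Cyp2e1, Cyp2f2 and Fabp1), not higher were 4 (Ass1, Arg1, Bhmt and Fbp1), and the 12 summed to 224 to 228 against 130 to 153. By mean log2 intensity over the 10 arrays the 4 brightest enzymes were Fbp1 (-0.18), Ass1 (0.15), Bhmt (0.02) and Cyp2d9 (0.42), which did not meet the rule, while Fabp1 and Cyp2e1, which met it, were brighter than Bhmt and Cyp2d9 on the 5 h arrays alone.

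Of 11 liver-enriched transcription regulators 0 met the rule, near the 1.19% of all probes, with a median of 0.03. The filter on dim probes passed 6 of the 11. Hnf4a had a log2 fold of 0.00, Cebpa of -0.11, Cebpb of 0.01 and Foxa1 of 0.03. Of 29 testis cell markers, 27 of which passed that filter, 0 met the rule, also near that share, with a median of -0.03. Of 48 measured genes that mark liver macrophages, bile ducts, kidney, pancreas, intestine, muscle, fat, red cells, leukocytes or epididymis, 1 met the rule. That is near the 1.19% of all probes, and 25 of the 48 passed the filter on dim probes. The gene that met the rule was Fabp2, an intestinal fatty acid binding protein also read in liver. It read 0.510 at 5 h, at least 2.46-fold above its mean in the other 4 pools. Of the 4 liver macrophage markers, Cd5l and Clec4f were at 0.125 and 0.0873 at 5 h. Their log2 folds over the other pools were 0.91 ± 0.27 and 0.91 ± 0.24, between levels that were all below the dim limit. C1qa and C1qb, which other macrophages also express, had log2 folds of -0.21 and -0.14. The part of the liver markers in the 5 h values of the 10 genes was not tested, and the 3 mice of a pool cannot be told apart.

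The genes outside the 10 whose profiles over the 5 pools were most like theirs were found among the 32 other probes of 1 symbol that met the 5 h size rule. Likeness was Pearson's r with the mean profile of the 10 genes over 5 pools, which rests largely on the 5 h point and is a description. Cyp2f2 (r = 0.997), Apoc2 (0.995), Cyp2e1 (0.993), Apoa2 (0.993) and Hamp (0.992) led, then Fabp1 (0.992), Slc27a2 (0.991), Hpx (0.988), Apoa1 (0.987) and Rida (0.985). The median over the 32 was 0.978, so that the leaders differ little from the rest.

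These genes include apolipoproteins (Apoc2, Apoa2 and Apoa1), the haem carrier Hpx and the cytochromes Cyp2f2 and Cyp2e1. Fabp1, the liver fatty acid binding protein, had a log2 fold of 6.37 at 5 h, and Apoa1, the main protein of high-density lipoprotein, was at least 138-fold above the dim limit. Rida, by contrast, was 2.05-fold higher. Among the 10 genes r with their own mean ran from 0.872 (Saa1) over 0.971 (Trf) and 0.978 (Orm1) to 1.00 (Serpina1e), so that Saa1 departed furthest from the shared profile.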

How the data were processed

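Labelled RNA of 5 pools of testis (3 mice each, 15 mice) had been read on 10 CodeLink arrays. The deposited values are the authors' normalised intensity on a linear scale, 1 per probe and array, whose sorted values were identical across arrays, which is what quantile normalisation gives. Scanner software, background correction and normalisation program: not given in the sources used here. Of 10012 probes, 115 had no value and 9897 were used, and 8983 carried 1 symbol in the platform annotation. The 5th percentile (0.0364) served as a floor, and values were converted to log2 and shifted to a common median. The lowest 25% by mean log2 were left out of counts over all probes, which left 7423. Limma 3.58.1 in R 4.3.3 was run on pool means with Benjamini-Hochberg adjustment and 2 residual degrees of freedom, and was checked on simulated data. Figures used matplotlib 3.10.9 in Python 3.11.15. Over 10 pairs of pools, arrays with the same number had deviations from their pool mean that correlated from -0.187 to 0.14, so the numbers do not pair arrays.

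The genes, lists and tests were chosen with earlier results of these data known. Named genes were the 10, the 10 others with the most similar profile, and up to 4 brightest of a list by mean log2 over the arrays (by linear mean, Mug1, Fga, Apoa1 and Fabp1 replace Serpinf1, Klkb1, Selenop and Cyp2d9), besides the hepatocyte markers counted; others are said to be picked after their values were seen. Probes were named from the platform annotation, with 8975 updated through gene identifiers. Alternatives changed the floor, offset, filter, centring, fold limit, pools, arrays and blocks. Promoters came from a RefSeq table that is not complete. Duplicate arrays are technical, so their spread leaves out mice.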

Additional observations from a re-analysis of the deposited data

Results flagged for a closer look

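In 4 of the 10 genes, a TSA pool other than 5 h lay on the opposite side of the control from the 5 h pool on both arrays. Among all tested probes, 39.8% lay below the control on both arrays at 2.5 h, 38.6% at 7.5 h and 38.6% at 10 h. A position below the control at 1 time was thus common. The 4 genes were counted over any of the 3 times, so these shares are not of the same measure. The share of all probes with opposite sides was not counted. The 5 h values chose the genes, all pools share 1 control pool, and the differences between times were not tested. Serpina1d had a log2 fold over the control of -0.91 at 7.5 h, against 4.98 at 5 h. Its 7.5 h arrays were both below the dim limit of 0.207. Saa1 had -0.19 at 2.5 h and -0.17 at 10 h, against 1.23 at 5 h, and its 2.5 and 10 h pools were also below that limit. Fgb had -0.084 at 2.5 h, against 4.91 at 5 h. Trf had -0.26 at 2.5 h, -0.63 at 7.5 h and -0.48 at 10 h, against 2.19 at 5 h.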

How the results depend on the processing

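The 5 h calls of the 10 genes held under most alternatives. The 5 h values chose these genes, so this is a description and not support. In the main setting 43 probes were higher in the 5 h pool, with 37 to 46 when 1 array was left out. The genes among them numbered 9 to 10. Without the filter the count was 118, with the lowest 50% left out 11 (2 of the 10 genes, since the filter leaves out dim probes), and at 1.5-fold 65; at 3-fold 9 of the genes met the limit. The 41 plasma proteins were 40 to 42 when 1 array was left out, 30 with an offset before the logarithm, 46 at 1.5-fold and 35 at 3-fold. Differences from the control numbered 68 probes at 2.5 h, 115 at 5 h, 142 at 7.5 h and 198 at 10 h (with 1 array left out 67 to 84, 114 to 128, 140 to 184 and 196 to 245). In the same order of times, they numbered 18, 66, 39 and 71 with an offset, 219, 355, 554 and 458 without the filter, 16, 27, 37 and 73 with the lowest 50% left out, 562, 730, 876 and 1222 at 1.5-fold, and 12, 42, 16 and 29 at 3-fold. With the replicate block they numbered 43 at 2.5 h, 78 at 7.5 h and 129 at 10 h.

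Limma called 3 probes, and 0 to 12 when 1 array was left out. It called 144 with an offset, 0 without the filter (1662 at an unadjusted p under 0.05), 193 when the lowest 50% were dropped, 6 after centring on neighbouring probes, 262 with all 4 TSA pools, 398 without the 2.5 h pool, 91 without the 7.5 h pool, 1 without the 10 h pool and 358 with a trended, robust prior. With the 8 arrays as samples it called 2376, with the replicate block 2027 and with pools as a random block 652, of which the 10 genes made up 2, 2 and 1. Those fits count duplicate arrays of a pool as separate samples or nearly so. Signs turned for Vtn after centring (-0.010) and for Serpina1b without the 10 h pool (-0.025). The sign of Trf turned with all 4 TSA pools (0.21). That fit puts back the 5 h pool, whose high values chose the genes, so this turn follows from the choice. With 1 array left out, Saa1 ran from -0.074 to 0.154, Serpina1b from -0.095 to 0.165 and Vtn from -0.109 to 0.201. The causes were not tested. No probe-level background is held, so dim levels are limits only.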
